A study of Mus musculus with 17 samples.

Results

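The nuclear genes of respiratory complexes II to V were taken from the deposited count tables by symbol: the 4 Sdh subunits of complex II, the Uqcr genes and Cyc1 of complex III, the Cox4 to Cox8 genes of complex IV and the Atp5 genes of complex V (ATP synthase). The rule gave 48 of 25239 genes, 4 in complex II, 9 in complex III, 18 in complex IV and 17 in complex V, after 1 symbol marked as a pseudogene was left out. These are short genes. The tables list a median length of 708 bases for them, with a range of 320 to 2859, against a median of 2259 bases over all genes. Of the 48, 33 are listed under 1000 bases, 13 from 1000 to under 2000 and 2 (Sdha and Atp5a1) at 2000 or more.

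Complexes II, III and IV sit in the inner mitochondrial membrane and pass electrons from succinate and ubiquinol to oxygen. Complexes III and IV pump protons as they do so, and complex V lets protons flow back to make ATP. Cortical neurons depend on this chain for most of their ATP, and several complex IV and V subunits exist as a common form and as forms known from heart and skeletal muscle, lung or testis. Of the listed subunits encoded by mitochondrial DNA, 0 were found by symbol among the genes counted, so they could not be analysed here.

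All libraries were bulk RNA from DAT-cre mice, which express Cre recombinase under the dopamine transporter promoter, so that the cortical cells sampled are not the cells the line targets. The mice were classed as perseverers (addicted) or renouncers (non-addicted) in oDASS, a protocol in which a mouse triggers optical stimulation of its own dopamine neurons. Imprints of brain tissue taken from the orbitofrontal cortex (OFC) ahead of oDASS make up 3 libraries for renouncers and 2 for perseverers. Tissue dissected after it came as 3 libraries of each class from the OFC and 3 of each from the medial prefrontal cortex (mPFC). The labels give neither ages nor whether replicates are separate animals, so that p-values measure the spread between these libraries only.

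The imprints held 8960549 to 10662666 counts and the dissections 12392731 to 20945108. Haemoglobin genes took 29.7% of the counts of imprint renouncer replicate 1 and 85.4% to 90.7% of the other 4 imprints, against at most 0.0787% in the dissections. The 6 excitatory neuron markers were all detected in each group. Their summed level outside haemoglobin was 3024 to 6251 CPM (counts scaled to a common library size) in the dissections and 701 to 2842 in the imprints. The genes of complexes II to V made up 1.81% to 3.12% of all counts in the dissections. In the imprints they made up 0.0932% to 1.22% of all counts, and 0.998% to 2.07% of the counts outside haemoglobin.

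In the 12 dissections, most subunit genes stood among the most abundant transcripts. Levels of different genes were compared as CPM per kilobase of listed length, after scaling the 12 libraries together. The median over the 48 genes was 379 CPM per kb, against 6.36 over the 15025 genes tested between the regions, and 42 of the 48 reached 10 CPM per kb. The median gene stood at 526 in complex V, 352 in complex III, 240 in complex II and 234 in complex IV, whose 18 genes run from the highest to the lowest levels of all 48.

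Complex II, succinate dehydrogenase, had the narrowest range of levels. Sdhb, the iron-sulfur subunit, stood at 348 ± 26.2 CPM per kb (mean ± SD over 12 libraries here and below). The catalytic flavoprotein Sdha stood at 241 ± 25.2, and the membrane anchors Sdhd and Sdhc at 239 ± 61.2 and 135 ± 16.5. The SDs of Sdha and Sdhd overlap, while Sdhc lay below the other 3 by more than their SDs.

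In complex III, 3 small subunits stood highest: the hinge protein gene Uqcrh at 969 ± 405 CPM per kb, Uqcr11 at 953 ± 320 and Uqcr10 at 934 ± 369. These do not differ beyond their spread. The core protein gene Uqcrc1 followed at 407 ± 28.8 and Cyc1, which codes for cytochrome c1, at 303 ± 44.3. Uqcrfs1, the Rieske iron-sulfur protein gene, stood at 202 ± 24.8. The lowest were the other core protein gene Uqcrc2 at 163 ± 21.8 and Uqcrb at 162 ± 37.6.

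Complex IV, cytochrome c oxidase, held the highest gene of all, Cox4i1, at 3458 ± 1167 CPM per kb. Cox6a1 (2442 ± 605) and Cox8a (2424 ± 672) came next, then Cox6c (1824 ± 640) and Cox6b1 (1823 ± 502). The forms best known from heart and muscle, lung or testis were all low. Cox6a2, the heart and muscle form of Cox6a1, stood at 23.4 ± 6.31, and Cox7a1, the heart and muscle form of Cox7a2, at 13.1 ± 6.61. Cox6b2, the testis form of Cox6b1, stood at 5.48 ± 2.74, Cox4i2, the lung form of Cox4i1, at 3.01 ± 1.38, and the testis gene Cox7b2 at 2.21 ± 0.77. Cox8b reached 1.07 ± 0.78, and Cox8c had 2 counts in 1 library and 0 in the other 11. Within a library, the level of Cox4i1 per kb was a median of 1192 times that of Cox4i2 (range 367 to 3038), Cox6a1 was 107 times Cox6a2 (88.4 to 123), and Cox7a2 was 64.2 times Cox7a1 (44.3 to 101). Cox6b1 was 337 times Cox6b2 (790 at most), and Cox7b, the common form, was 193 times Cox7b2 (129 to 323). Cox7a2l, a relative of Cox7a2 that takes part in joining complexes III and IV, stood at 61.8 ± 12.7.

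In complex V, Atp5b, the catalytic beta subunit of the F1 head, was highest at 1452 ± 82.6 CPM per kb, and its partner Atp5a1, the alpha subunit, stood at 509.6 ± 45.03. The other F1 subunits lay at 1032 ± 458 (Atp5e), 437 ± 25.4 (Atp5d) and 305 ± 56.8 (Atp5c1). The c subunit of the rotating ring is made from 3 genes that code for one mature protein. Atp5g3 held nearly all of its counted level at 910 ± 150, with Atp5g1 at 32.8 ± 5.44 and Atp5g2 at 0.77 ± 0.33. The levels of Atp5g1 and Atp5g2 are uncertain, as they share much sequence with other transcripts (given below), against 0% for Atp5g3. Atp5g3 per kb was a median of 28.3 times Atp5g1 (22.5 to 31.1).

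Some low values touch on shared sequence. Of the 46 genes matched to GENCODE M21, 11 had over 20% of their 50-base stretches in transcripts of other genes, and their median level was 163 CPM per kb against 430 for the other 35. Among the 11 are Cox7c (60.2 ± 19.4, 48.2% shared), Atp5g1 (56.2% shared), Atp5g2 (46.4% shared) and Atp5l (30.1 ± 8.01, 84.8% shared, with 12 pseudogenes). Atp5o was also among them (89.8%), and its GENCODE record overlaps Donson on the same strand. So was Uqcrc2 (24.8%), with 19.7% of its exon bases overlapping Pdzd9 on the other strand, in libraries that keep no strand. How reads that match several places were counted is not given in the sources used here. The levels of these genes are therefore uncertain, and the part of shared sequence in them was not tested. For the 2 genes not matched, Atp5md and Atp5pb, shared sequence was not measured.

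**Figure D1:**
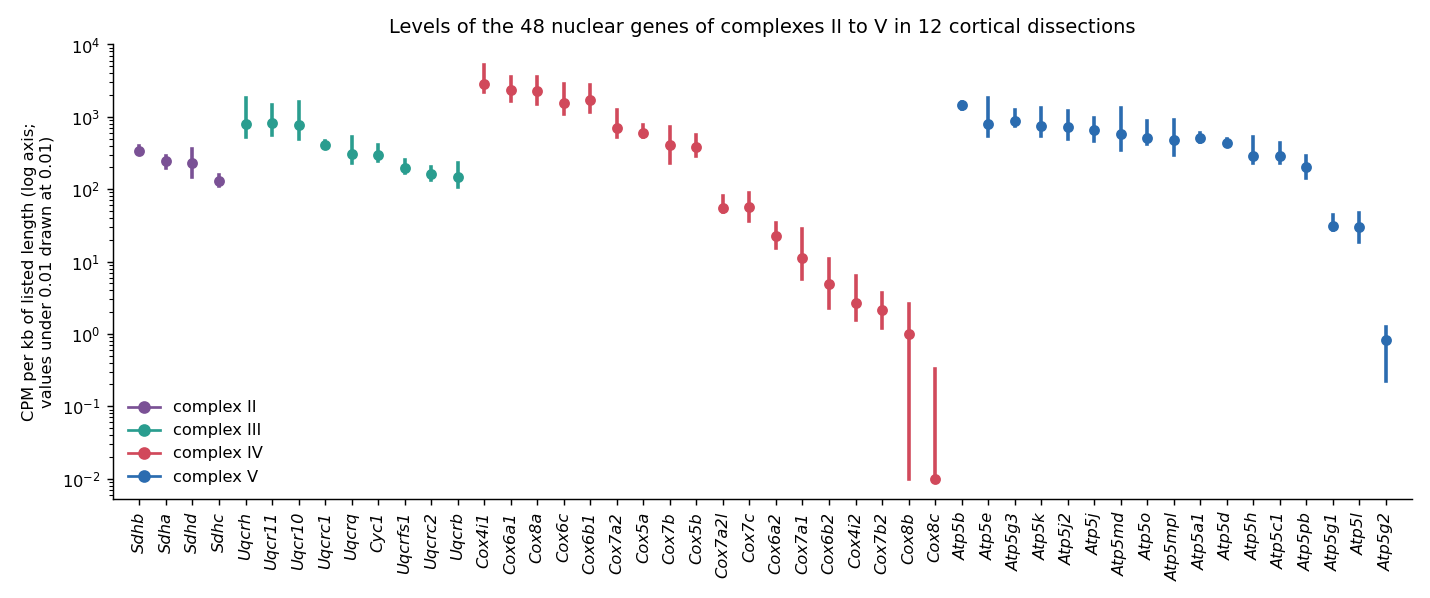
Level of each of the 48 genes in the 12 dissections, in CPM per kb of listed length on a log axis, by complex in order of mean level; dots are medians and bars run from the lowest to the highest library, with values under 0.01 drawn at 0.01. Complex IV spans the widest range, from Cox4i1 at a mean of 3458 to Cox8c at 0 in 11 libraries, while the 4 genes of complex II lie between 135 and 348.

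Promoters of nuclear respiratory genes are known for sites of NRF1 and of ETS factors such as NRF2 (GABP). RefSeq promoter sequences on GRCm38.p6, from 250 bases before to 50 after the start site, were found for 36 of the 48 genes. The NRF1 motif searched, which is printed in capitals in the first 3 sequences below and reads the same on both strands, occurred in 4 of the 36 (11.1%), against 264 of all 27025 promoters of that length (0.977%). The ETS letters CCGGAAGT, or ACTTCCGG on the other strand, occurred in 4 of the 36 (11.1%), against 4.0% of all promoters. The YY1 motif, searched on both strands, was in 0 of the 36, against 0.899%, which says only that these letters are not in these windows. GGGCGG, the Sp/KLF letters, was in 38.9% against 35.9%, CCAAT in 55.6% against 37.9%, and TATAAA in 11.1% against 14.2%, each on both strands. Stretches of 70 bases upstream of the start site are shown for 5 genes that hold the NRF1 or ETS letters, because these letters are shared by genes of different complexes. They read 5′ to 3′ on the strand of the gene, with the motif in capitals.
Cox6a1 (chr5:115349081-115349150, minus strand, NRF1): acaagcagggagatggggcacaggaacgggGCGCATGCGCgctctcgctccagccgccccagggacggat
Atp5k (chr5:108434410-108434479, minus strand, NRF1): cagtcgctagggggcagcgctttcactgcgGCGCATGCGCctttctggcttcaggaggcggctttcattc
Atp5g2 (chr15:102671050-102671119, minus strand, NRF1): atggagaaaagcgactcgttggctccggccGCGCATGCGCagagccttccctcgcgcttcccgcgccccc
Uqcr11 (chr10:80406848-80406917, minus strand, ETS): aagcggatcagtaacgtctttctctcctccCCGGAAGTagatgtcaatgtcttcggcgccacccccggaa
Atp5h (chr11:115419920-115419989, minus strand, ETS on the other strand): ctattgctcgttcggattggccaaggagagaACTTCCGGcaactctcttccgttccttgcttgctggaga
The same NRF1 letters stood before Cox6a1, at 2442 CPM per kb, Atp5k, at 858, and Atp5g2, at 0.77, a level that is uncertain because of shared sequence. Uqcrh and Cox8a held the ETS letters as well, and Uqcrc1 held the NRF1 letters after its start site.

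Most genes of these complexes moved together from library to library, and members under 1000 bases moved more on the median than longer ones. Sdha went the other way in OFC renouncer replicates 1 to 3, at 685, 642 and 577 CPM, where Uqcrh stood at 341, 642 and 979. Across the 12 dissections the scaled level of Atp5md, a small subunit gene of 363 bases, ran from 125.2 to 477 CPM, a ratio of 3.81. Uqcrh ran from 286 to 979 (3.42), Atp5e from 224 to 758 (3.38) and Uqcr10 from 286 to 935 (3.27). The smallest ratios were those of Atp5d, the F1 delta subunit gene, at 1.22 (396 to 482 CPM), Atp5b at 1.24 (2407 to 2974), Sdhb at 1.25 and Uqcrc1 at 1.27. Length did not order every gene: Atp5d is listed at 981 bases, while Cox7b, at 1001 bases, had a ratio of 3.07. Among genes whose mean log2 of CPM plus 1 was above 4, the median ratio was 2.36 for the 24 members under 1000 bases and 1.63 for the 13 from 1000 to under 2000. The medians for other genes were 2.01 under 1000 bases (445 genes), 1.69 from 1000 to under 2000 (1595) and 1.79 at 2000 or more (6464).

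By library, the members' median log2 difference from the mean of the 6 OFC dissections was -0.37, 0.19 and 0.48 in renouncer replicates 1 to 3 and -0.14, -0.36 and 0.26 in perseverers. In the mPFC it was 0.01, -0.13 and 0.45 in renouncers and -0.23, -0.41 and 0.37 in perseverers. Replicate 3 of both phenotypes was the highest of its group in both regions, and the groups overlap. Complex II moved least, between -0.17 and 0.19 in the OFC, and complex IV most, between -0.45 and 0.47. Other genes under 1000 bases stood at -0.31, 0.24 and 0.37 in OFC renouncers and -0.14, -0.32 and 0.17 in OFC perseverers, so that they moved in the same direction in each library, while other genes of 2000 bases or more in the OFC stayed between -0.08 and 0.06. The correlation of a gene's deviation with its listed length ran from a Spearman value of -0.42 in OFC renouncer replicate 3 to 0.37 in OFC perseverer replicate 2. The part of this length trend in the members' values was not tested beyond its removal, given below.

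**Figure D2:**
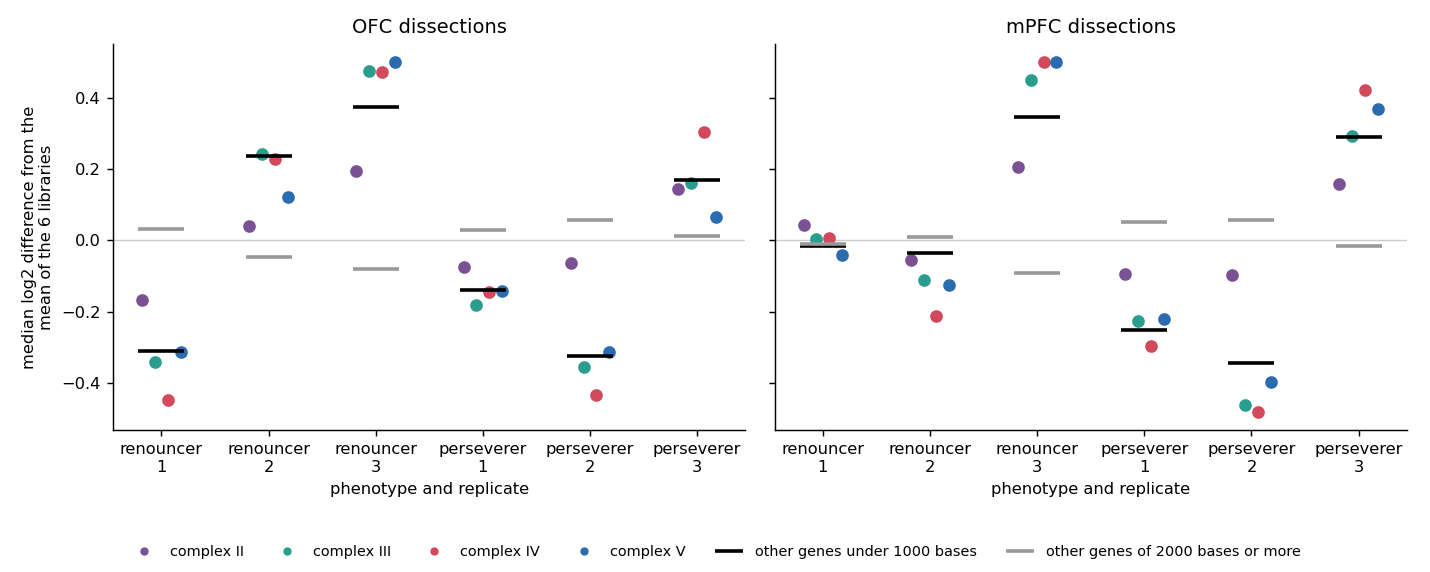
Median log2 difference from the mean of the 6 libraries of a region, for each dissection library: dots are the members of each complex, black bars other genes under 1000 bases and grey bars other genes of 2000 bases or more. The complexes and other short genes share their direction in nearly all libraries, with OFC renouncer replicate 3 high (0.48 over the members) and OFC perseverer replicate 2 low (-0.36).

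Summed over its genes per kb, complex IV stood at 10530, 17690 and 20530 CPM per kb in OFC renouncers and at 13270, 11030 and 18630 in OFC perseverers. In the mPFC the sums were 12700, 11250 and 18920 in renouncers and 10650, 9403 and 18160 in perseverers. The 4 dissection groups overlap. Complex II varied less, with 881, 1015 and 1116 in OFC renouncers and 936, 883 and 1038 in OFC perseverers. In the mPFC complex II stood at 944, 907 and 1043 in renouncers and at 894, 874 and 1021 in perseverers.

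The comparison of perseverers with renouncers in the OFC dissections after oDASS asked whether these genes differ between addicted and non-addicted mice. No member passed the threshold (adjusted p under 0.05 over all genes, edgeR), where 0% of the 14621 genes tested passed. Of the 45 members tested, 41 had a negative log2 fold change (perseverer minus renouncer) and the median was -0.26, against a median of 0.00 over all genes. In bulk tissue, fewer cells of a type and less RNA per cell cannot be told apart. All 9 genes of complex III were negative, as were 3 of 4 in complex II, 15 of 16 in complex IV and 14 of 16 in complex V.

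Sdhd, with the smallest p of complex II, stood at 263, 385 and 463 CPM in renouncer and at 289, 231 and 341 in perseverer replicates 1 to 3. The groups overlap, and the log2 fold change was -0.38 ± 0.22 (SE; adjusted p = 0.951). Uqcr10, a small subunit of complex III, stood at 378, 718 and 935 CPM in renouncers and 461, 351 and 700 in perseverers (-0.44 ± 0.31, adjusted p = 0.951). Its renouncer replicate 1 lay below 2 of the 3 perseverers. Uqcrc2 stood at 330, 294 and 385 CPM in renouncers and 299.5, 271 and 269 in perseverers (-0.28 ± 0.16, adjusted p = 0.951). Cox7b of complex IV stood at 335, 521 and 714 CPM in renouncers and 385, 294 and 548 in perseverers (-0.37 ± 0.28). In complex V, Atp5o, the stalk subunit that gives the enzyme its sensitivity to oligomycin, stood at 337, 486 and 675 against 394, 341 and 454 (-0.35 ± 0.23), and the stalk subunit Atp5pb at 354, 398 and 519 against 368, 322 and 380 (-0.26 ± 0.18). In each of these genes except Uqcrc2 the lowest renouncer was replicate 1 and in all of them the highest was replicate 3.

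The most negative value was that of Atp5md, at 363 bases (-0.48 ± 0.36), and the most positive that of Sdha, the longest of the 48 at 2859 bases. Sdha had 685, 642 and 577 CPM in renouncers and 713, 683 and 814 in perseverers, a log2 fold change of 0.20 ± 0.16 (adjusted p = 0.951), and overlapped by 1 value. Atp5a1, at 2431 bases, stood at 0.02 ± 0.16. Cox6a1 (0.00 ± 0.24) and Atp5d (0.01 ± 0.15) were the other 2 without a negative value. Not one member separated the groups in either direction, where 3.08% of all genes tested were lower and 5.95% higher in every perseverer. DESeq2 called 0 members too, and at an unadjusted p under 0.05 there were 0 with edgeR (2.58% of all genes), 0 with DESeq2 and 1 with limma (6.98% of all genes).

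By length, the median log2 fold change was -0.28 for the 30 members under 1000 bases, against -0.20 for 909 other genes of that length. It was -0.23 for 13 members from 1000 to under 2000 bases, against -0.11 for 2897 others, and the 2 longest members had positive values where 10770 other genes had a median of 0.05. With the length trend of each library removed, 23 of the 45 members were negative and their median was -0.02. Without renouncer replicate 3 the median was -0.05. Over the fits with 1 library left out it ran from -0.43 to -0.05, with 33 to 44 members negative. Of the markers of other cell types, 0 of the following passed the threshold. All 5 endothelial markers were positive (median 0.43, 3 at an unadjusted p under 0.05), with sums of 77.4 to 100.1 CPM outside haemoglobin in renouncers and 102.8 to 110.3 in perseverers. The 5 meningeal fibroblast markers were negative (median -1.08), and 4 of 6 excitatory neuron markers were positive (median 0.24), the latter with sums of 3108 to 4090 against 4419 to 4752. Astrocyte (median 0.12) and oligodendrocyte markers (0.14) were positive in 6 of 6 cases each, and red cell markers in 5 of 5 (0.44, 1 at an unadjusted p under 0.05). Of 6 inhibitory neuron markers 5 were negative (median -0.19, 1 at an unadjusted p under 0.05). No listed marker of these lists was at 0 throughout an OFC dissection group, and their part in the members' values was not tested.

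In the mPFC dissections the same comparison gave a like picture. The library codes are adjacent to those of the OFC libraries of the same phenotype and number. Both regions may thus come from the same mice and need not be independent. No member passed (0% of 14375 genes), 40 of 45 members were negative, and the median was -0.20, against 0.00 over all genes. Sdhd stood at 300, 278 and 379 CPM in renouncers and 226, 187 and 342 in perseverers (-0.34 ± 0.23, adjusted p = 0.943). Uqcrc2 stood at 353, 302 and 355 against 272, 249 and 312 (-0.28 ± 0.17), with perseverer replicate 3 above renouncer replicate 2. Atp5pb stood at 374, 326 and 445 against 280, 255 and 374 (-0.33 ± 0.20) and Atp5l, a membrane subunit of complex V, at 12.7, 15.3 and 20.3 against 9.42, 9.55 and 16.3 (-0.45 ± 0.30). Uqcr11 of complex III stood at -0.35 ± 0.30, and in complex IV Cox7b at -0.37 ± 0.29 and Cox5a at -0.20 ± 0.17.

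Sdha was again higher, at 706, 657 and 562 CPM in mPFC renouncers and 755, 716 and 748 in perseverers, without overlap (0.21 ± 0.16, adjusted p = 0.943). It was the only member higher in every perseverer, where 5.71% of all genes were. Cox7b2 was the only one lower in every perseverer (5.19% of all genes), at 1.81, 1.03 and 1.17 CPM against 0.87, 0.65 and 0.95, a gene with 9 to 30 counts in each of the 12 dissections. The highest value was that of Cox4i2 (0.55 ± 0.61), a low gene that also rests on few counts (19 to 64). Unadjusted p under 0.05 was reached by 0 members with edgeR (4.45% of all genes), 0 with DESeq2 and 14 with limma (14.9% of all genes), and none passed after adjustment with any of the 3.

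Members under 1000 bases had a median of -0.22 in the mPFC, against -0.17 for 879 other genes of that length, and those from 1000 to under 2000 bases -0.16 against -0.11. With the length trend removed, 25 of 45 members were negative and the median was -0.02. Without renouncer replicate 3, 22 of 45 were negative and the median was 0.00. Over the fits with 1 library left out the median ran from -0.49 to 0.00, with 22 to 41 members negative. In the mPFC all 6 excitatory neuron markers were positive (median 0.33, 2 at an unadjusted p under 0.05), with sums of 3024 to 3875 CPM outside haemoglobin in renouncers and 3964 to 6251 in perseverers. Of 6 inhibitory neuron markers 4 were negative (median -0.31, 2 at an unadjusted p under 0.05), with sums of 886 to 1212 against 641 to 799.6, and 4 of 5 meningeal fibroblast markers were positive (median 0.53). Of 6 oligodendrocyte markers 5 were negative (median -0.15), and 5 of 5 red cell markers were positive (0.14). None of these markers passed the threshold, and their part was not tested. Across genes, the Spearman correlation of listed length with the log2 fold change was 0.41 over the members and 0.33 over all genes in the OFC, and 0.43 and 0.32 in the mPFC. Genes are not independent replicates.

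**Figure D3:**
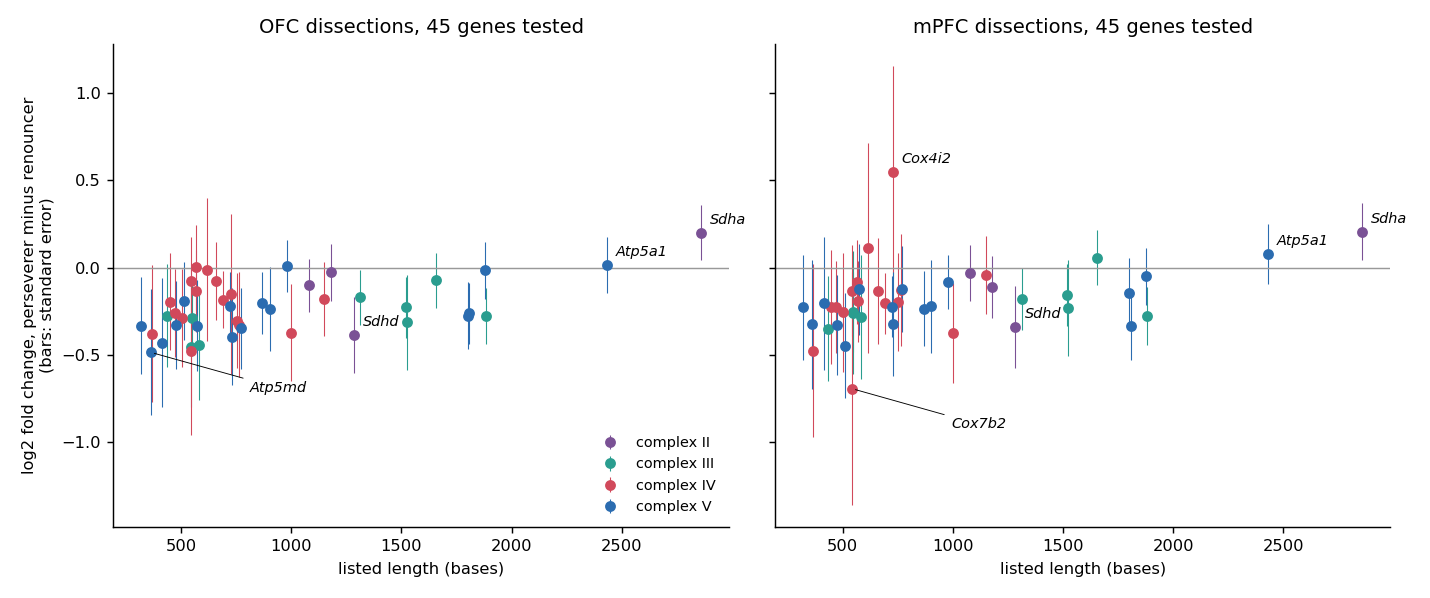
Log2 fold change of perseverers against renouncers (bars: SE) by listed length for the 45 members tested in the OFC (left) and the mPFC (right) dissections. Most members lie below 0, 41 of 45 in the OFC and 40 of 45 in the mPFC, and the 2 longest, Sdha and Atp5a1, lie above it in both.

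Other genes of mitochondrial respiration were set beside these from fixed lists. Of 36 nuclear complex I genes, 35 were negative in the OFC (median -0.21) and 35 in the mPFC (-0.14), with 0 past the threshold in either. Ndufs4, which codes for an accessory subunit of complex I, stood at -0.42 ± 0.24 in the OFC and -0.33 ± 0.26 in the mPFC. Of 32 assembly factors of complexes II to V, 25 were negative in the OFC (median -0.16) and 27 in the mPFC (-0.16), again with 0 past the threshold. Tmem70, which is needed to build ATP synthase, stood at -0.40 ± 0.19 in the OFC and -0.43 ± 0.18 in the mPFC. Cycs, the somatic cytochrome c, stood at -0.09 ± 0.22 and -0.10 ± 0.22, and Atpif1, the ATP synthase inhibitor, at -0.31 ± 0.26 and -0.36 ± 0.24.

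Of 13 enzymes of the tricarboxylic acid cycle, 7 were negative in the OFC (median -0.03) and 9 in the mPFC (-0.03). Among 14 regulators of mitochondrial biogenesis, 10 were positive in the OFC (median 0.16) and 8 in the mPFC (0.16). Ppargc1b, a coactivator of mitochondrial genes, stood at 0.36 ± 0.19 in the OFC and 0.69 ± 0.21 in the mPFC (adjusted p = 0.943), and Esrrg, a nuclear receptor of the same programme, at 0.40 ± 0.20 and 0.61 ± 0.28. None of these passed. Differences between the lists were not tested.

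**Figure D4:**
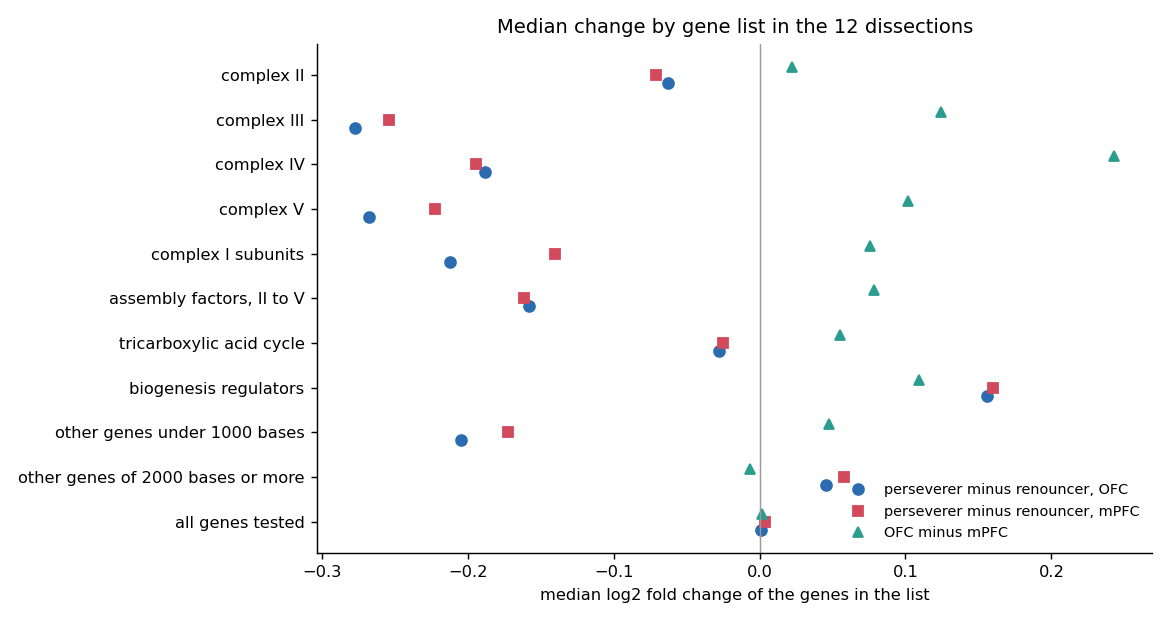
Median log2 fold change of each gene list in 3 comparisons of the dissections: perseverers against renouncers in the OFC (circles) and the mPFC (squares), and OFC against mPFC (triangles). Complexes III to V lie between -0.28 and -0.19 in the phenotype comparisons, near the medians of other genes under 1000 bases (-0.20 and -0.17), and complex II lies nearer 0 (-0.06 and -0.07).

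Whether the phenotype difference itself differed between regions was tested as an interaction. No member passed (0% of 15025 genes; 0 members at an unadjusted p under 0.05 with edgeR, DESeq2 or limma, where 1.5% of all genes were with edgeR). Of 46 members 23 were negative and 23 positive, with a median of -0.01 and a range of -0.69 (Cox4i2, SE 0.77) to 0.87 (Cox8b, SE 1.41). The count of negative members turned on single libraries: it was 40, 5 and 38 without OFC renouncer replicates 1 and 3 and perseverer replicate 3, and 43, 36, 41 and 5 without mPFC renouncer replicate 3 and perseverer replicates 1, 2 and 3.

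Between the regions, with phenotype as a term, members lay higher in the OFC than in the mPFC in 41 of 46 cases, with a median log2 fold change of 0.14 against 0.00 over all genes. No member passed the threshold, where 1.76% of all genes did and 0.892% were higher in the OFC. The 2 with an unadjusted p under 0.05 (14.3% of all genes) were muscle forms of complex IV subunits. Cox7a1 stood at 3.66, 6.49, 10.2, 4.998, 3.32 and 7.53 CPM in the 6 OFC libraries and 3.19, 3.08, 6.17, 2.09, 2.23 and 4.58 in the mPFC (renouncers first), a log2 fold change of 0.76 ± 0.32 (adjusted p = 0.273). Cox6a2 stood at 13.9, 17.9, 22.3, 15.9, 14.3 and 21.7 against 12.2, 10.02, 19.2, 12.2, 9.98 and 15.5 CPM (0.42 ± 0.19, adjusted p = 0.319). In both genes the regions overlap. With phenotype and replicate number together as a block, 7.52% of all genes passed and 1 member did, Cox8a, at 0.33 ± 0.10 (adjusted p = 0.0481, against 0.471 without the block), while Cox7a1 (adjusted p = 0.0518) and Cox6a2 (adjusted p = 0.0598) missed the threshold. Cox8a stood at 1045, 1751, 1711, 1325, 1075 and 1928 CPM in the OFC and 1143, 1036, 1493, 925.5, 819.8 and 1604 in the mPFC, and was higher in the OFC in 5 of the 6 pairs of the same phenotype and number. The labels do not say that these numbers pair the libraries. The library codes they give are adjacent for the OFC and mPFC libraries of each phenotype and number. Such libraries may come from the same mice, while the main region test treated all libraries as separate. Cox6a2 overlaps Itgad on the other strand, and the libraries keep no strand. Of the 5 muscle markers, summed levels outside haemoglobin were 14.8 to 18.1 CPM in the OFC and 11.3 to 19.2 in the mPFC.

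The other complexes leaned less. In complex II, Sdhd stood at 0.20 ± 0.17 and Sdhc at 0.06 ± 0.11, while Sdha and Sdhb were at -0.01 and -0.03. In complex III, Uqcr10 stood at 0.23 ± 0.27 and Uqcrq at 0.20 ± 0.21, and in complex V Atp5l at 0.29 ± 0.19 and Atp5pb at 0.19 ± 0.13. Members under 1000 bases had a median of 0.18, against 0.05 for 952 other genes of that length, and members from 1000 to under 2000 bases 0.06 against 0.01. The Spearman correlation of listed length with the log2 fold change was -0.60 over the members and -0.06 over all genes. Oligodendrocyte markers were also higher in the OFC in 6 of 6 cases (median 0.73, 5 at an unadjusted p under 0.05, 0 past the threshold). Their summed levels outside haemoglobin were 5765 to 18780 CPM in the OFC and 2081 to 8248 in the mPFC. Of 6 astrocyte markers 5 were higher, and Gfap passed (1.39 ± 0.22, adjusted p = 0.00466). Lower in the OFC were 3 of 3 oligodendrocyte precursor markers (median -0.64, 3 at an unadjusted p under 0.05) and 5 of 6 inhibitory neuron markers. The median of these 6 was -0.19, and 4 of the 6 had an unadjusted p under 0.05. Among those 4 was Pvalb, which was higher in the OFC (1.10 ± 0.29, adjusted p = 0.0735). The part of these cell types in the members' values was not tested. The count of 5 negative members became 8 and 14 without OFC renouncer replicates 2 and 3, 10 without OFC perseverer replicate 3, and 10 and 12 without mPFC renouncer replicates 1 and 2. Related lists leaned the same way. Higher in the OFC were 29 of 36 complex I genes (median 0.08), 23 of 32 assembly factors (0.08) and 13 of 14 biogenesis regulators (0.11). Among these regulators, Esrrg was higher in the OFC (0.84 ± 0.15, adjusted p = 0.0085), the 1 of 14 to pass.

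In the imprints taken before oDASS, perseverers were compared with renouncers over 2 and 3 libraries. No member passed (0% of 10530 genes; 0 members at an unadjusted p under 0.05 with edgeR, DESeq2 or limma, and 1.72% of all genes with edgeR). Of 43 members tested 32 were negative, with a median of -0.20 and SEs of 0.45 to 1.13. The most negative was Cox7c (-1.24 ± 0.83), 48.2% of whose 50-base stretches are shared, and the most positive Sdhc (0.39 ± 0.51). Counted outside haemoglobin, complex IV summed to 12650, 6854 and 16330 CPM per kb in renouncers and 12540 and 7066 in perseverers, and complex II to 868, 234 and 571 against 667 and 295, so the groups overlap. Among single members, 0 were lower in both perseverers than in every renouncer (7.27% of all genes were) and 0 higher (9.01%). Without renouncer replicate 3, 18 of 43 members were negative, and with the replicate number as a block 11 of 43 were, with a median of 0.12.

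Imprints and dissections of the OFC were compared over 5 and 6 libraries. Stage and way of collection coincide here and cannot be told apart. Of 46 members 9 passed, where 33.5% of all 15229 genes did, and 14 had an unadjusted p under 0.05 (43.6% of all genes). Of the 9, 4 were higher in imprints (15.6% of all genes) and 5 lower (17.9%). The median log2 fold change of the members was -0.03 and that of all genes -0.16. The zero of this scale depends on the scaling: the median of all genes was 0.30 with DESeq2, -0.03 with RLE scaling and -0.80 with haemoglobin left out and library totals alone, where the members stood at -0.80 as well and 16 of 47 passed, beside 40.1% of all genes. The 9 became 5 without dissected renouncer replicate 3 (28.4% of all genes) and 4 without dissected perseverer replicate 1 (27.9%).

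Cox6b2, the testis form of a complex IV subunit, rose in the imprints by a log2 fold change of 5.20 ± 0.71 (adjusted p = 9.11e-05). On the scale of the fit it stood at 3.32, 123.99 and 42.5 CPM in imprint renouncers and 21.1 and 71.1 in imprint perseverers, and between 0.915 and 2.19 in the 6 dissections, without overlap (8.52% of all genes were higher in every imprint). The lowest imprint was renouncer replicate 1, the one with 29.7% haemoglobin. As a share of all counts, haemoglobin included, Cox6b2 stood at 6.75, 12.1, 7.44, 6.92 and 8.29 CPM in the 5 imprints and at 2.67 to 6.72 in the dissections. Within a library, where no scaling enters, the ratio of Cox6b1 to Cox6b2 per kb was 89.02, 2.81 and 11.9 in imprint renouncers and 18.7 and 4.03 in imprint perseverers, against a median of 337 in the 12 dissections. Each imprint had a lower ratio than any dissection. Platelet markers summed to 1133 to 3488 CPM outside haemoglobin in the imprints and 3.68 to 5.08 in the OFC dissections, and neutrophil markers to 307 to 3278 against 0.62 to 2.35. The part of blood cells in the level of Cox6b2 was not tested.

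The other 3 higher genes were Atp5l, Cox7a1 and Cox6a1. Atp5l stood at 3.90, 43.3, 23.95, 16.4 and 30.3 CPM in the imprints and 4.75 to 8.14 in the dissections (1.99 ± 0.44, adjusted p = 0.00242), with imprint renouncer replicate 1 below all dissections. Cox7a1 stood at 3.53 to 5.99 CPM in the imprints and 1.12 to 3.44 in the dissections, without overlap (1.27 ± 0.43, adjusted p = 0.03), on 5 to 67 counts per imprint. Cox6a1 stood at 587 to 1486 against 359 to 624 (0.90 ± 0.27, adjusted p = 0.0179). With haemoglobin left out and library totals alone, Cox6b2 kept its call (4.04), and Atp5l (0.997), Cox7a1 (0.57) and Cox6a1 (0.08) lost theirs.

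The 5 lower genes were Sdhd, Uqcrc2 and 3 genes of complex V. Atp5pb stood at 62.0 to 91.7 CPM in the imprints and 108.4 to 175 in the dissections (-0.77 ± 0.20, adjusted p = 0.00717). Atp5c1, the gamma subunit of the F1 head, stood at 101 to 137 against 156 to 264 (-0.64 ± 0.20, adjusted p = 0.0218), and Uqcrc2 at 47.9 to 79.8 against 84.6 to 130 (-0.64 ± 0.20, adjusted p = 0.0237). These 3 did not overlap between imprints and dissections, where 15.7% of all genes were lower in every imprint. Sdhd (-0.69 ± 0.22, adjusted p = 0.0233) and Atp5o (-0.65 ± 0.24, adjusted p = 0.045) overlapped. All 5 were lower under every alternative run, with the call of Atp5pb kept in each of the 22 and that of Atp5o in 8. Excitatory neuron markers were lower in the imprints as well, 5 of 6 past the threshold with a median of -1.15, and their part was not tested.

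Among related lists, 4 complex I genes of 36 were lower and 2 higher in the imprints, and 7 assembly factors of 32 were lower and 2 higher, where 17.9% of all genes were lower and 15.6% higher. Of the tricarboxylic acid cycle genes 4 of 13 were lower, among them Idh3a (-1.32 ± 0.21, adjusted p = 0.000125) and Sucla2 (-1.29 ± 0.30), and none was higher. Atpif1 was higher (1.13 ± 0.34, adjusted p = 0.0173).

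**Figure D5:**
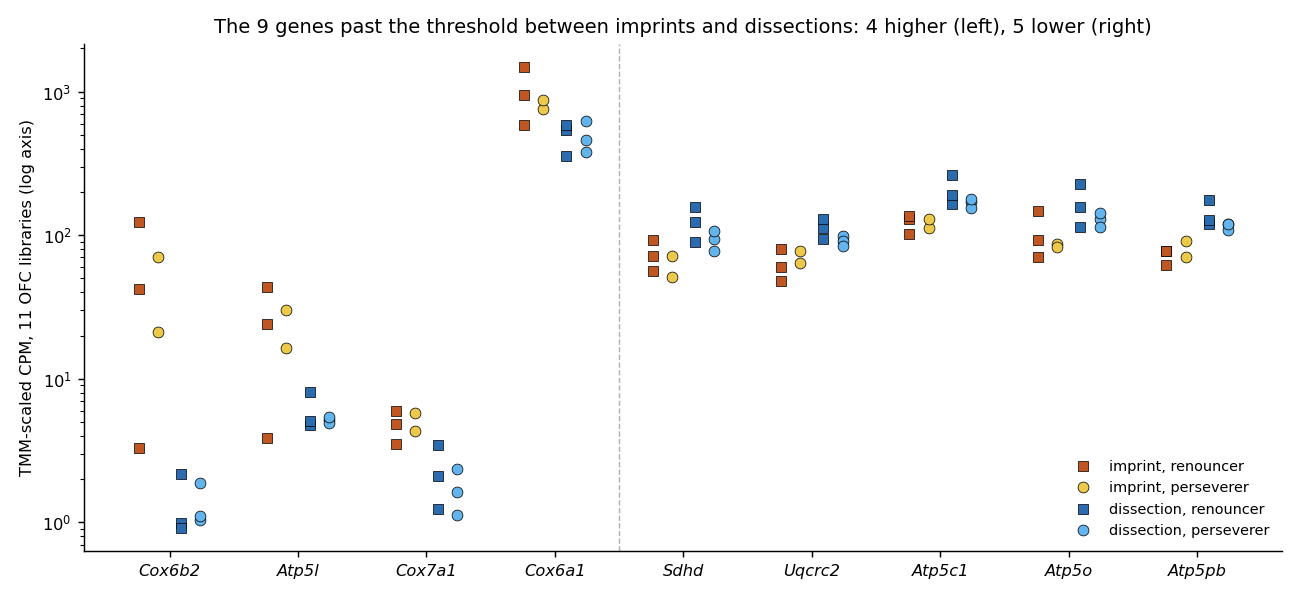
Scaled CPM on a log axis of the 9 members past the threshold between OFC imprints and dissections, with 1 point per library and phenotype by symbol. Cox6b2 shows the widest gap, 3.32 to 123.99 CPM in the imprints and 0.915 to 2.19 in the dissections, and Atp5pb, Atp5c1 and Uqcrc2 lie lower in each imprint than in any dissection.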

How the data were processed

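Raw counts per gene in 3 tables, deposited by the authors with a gene length in bases, were analysed for 17 mouse libraries made with a Qiagen micro kit, SMART-Seq v4 and Nextera reagents, per the labels' protocols, which keep no strand. FastQC 0.11.8 and the build mm10 are named in the submitters' processing notes; which aligner, counter and annotation were used is not given in the sources used here. The members and lists were chosen with earlier results of these data known.

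Genes were kept with filterByExpr, scaled by TMM and tested 2-sided with the quasi-likelihood test of edgeR 4.0.16 in R 4.3.3, with Benjamini-Hochberg adjusted p under 0.05 over all genes tested; the scripts were tested on simulated data. Phenotype was tested within each table, region over 12 dissections and imprint against dissection over 11 OFC libraries, each of these with phenotype as a term. The SE, the size of the log2 value over the root of F, is approximate. Levels are CPM after TMM scaling of the 12 dissections, or of the 11 OFC libraries where imprints are compared. Genes named were, per complex, the 2 with the smallest p and those with the highest and lowest log2 fold change in each comparison, the highest by level per kb, fixed isoform families and the Sdh genes, and up to 2 genes of each other list; other members were named after their values were seen. Alternatives were DESeq2 1.42.0, limma 3.58.1 (voom with quality weights), other scalings and filters, a threshold of 0.1, removal of each library's length trend, a replicate block, all 17 libraries in 1 fit and leaving out each library. A further alternative for the dissections was a term for library codes under 100 or above. In each group replicate 1 has a code under 100 and the other replicates a higher one. What the codes stand for is not given in the sources used here. With this term 0 genes passed for phenotype in either region and 216 passed between regions. Haemoglobin left out with library totals alone as the scaling, and a block by phenotype and replicate number, were added after seeing the data. Promoters are from RefSeq (GRCm38.p6) and shared 50-base stretches from GENCODE M21.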

Additional observations from a re-analysis of the deposited data

How the results depend on the processing

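Over the alternatives, 324 values of the main results stayed within their limits, 26 moved and 1 newly passed the threshold, and of the named genes' values 593 kept direction and side of the threshold, 43 lost the threshold and 2 reversed. A count of 0 members past the threshold that stayed at 0 was among the values kept. The total of 324 therefore says little about how stable the medians are. The reversed values were those of Cox5a with the length trend removed, at 0.0505 in the OFC and 0.0291 in the mPFC. With that trend removed, 23 members were below 0 in the OFC, 25 in the mPFC and 10 between regions. DESeq2 gave 8 between regions and 15 between imprints and dissections, and RLE scaling gave 15 there. Haemoglobin left out and totals alone gave 16 members past the threshold, beside 40.1% of all genes, and a median of -0.80. Leaving out 1 library at a time gave 18 to 36 members below 0 in the imprints and 33 to 44 in the OFC. It gave 22 to 41 in the mPFC, 4 to 14 between regions and 5 to 43 in the interaction. Between imprints and dissections it gave 14 to 30 (14 without imprint renouncer replicate 1), with 4 to 12 past the threshold. With a replicate block, 11 members were below 0 in the imprints (median 0.12), 41 in the OFC, 40 in the mPFC, 7 between regions, 19 between imprints and dissections and 19 in the interaction. The labels give the numbers no meaning. Deviations of same-numbered renouncer and perseverer libraries correlated at 0.138, -0.381 and 0.148 in the OFC and 0.031, 0.309 and 0.240 in the mPFC. In the imprints, over replicates 1 and 2, the value was 0.525 for the same number and -0.525 for the other number. With 2 libraries per group these values mirror each other by construction, so they cannot decide on a block. As the numbers have no stated meaning, the main phenotype fits used no block, and the main region fit used none either. These correlations do not bear on a pairing of OFC with mPFC libraries, whose codes are adjacent within phenotype and number. Between OFC and mPFC libraries of the same phenotype and number the correlations were 0.22, -0.05 and 0.33 in renouncers 1 to 3 and 0.21, 0.63 and 0.65 in perseverers. A block by number raised the genes called between regions from 264 to 535, and a block by phenotype and number, added after seeing the data, to 1130, with 1 member past the threshold (Cox8a), 6 below 0 and a median of 0.14; in the interaction it gave 0 past the threshold and 18 below 0. Low counts limit Cox8c, Cox8b, Atp5g2, Cox7b2 and Cox4i2.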
